A study of Saccharomyces cerevisiae with 9 samples.

Results

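The 2 old yellow enzyme genes OYE2 and OYE3 and the 5 aryl-alcohol dehydrogenase genes AAD3, AAD4, AAD6, AAD10 and AAD14 of Saccharomyces cerevisiae were followed over bisphenol A (BPA) exposure. They were taken by gene symbol from the platform annotation and make up 7 of the 5449 genes measured. All 7 were found, on 10 probe sets. The cultures grew in YPD broth and were treated at mid-exponential phase for 180 min with ethanol alone (control) or with BPA dissolved in ethanol, at 50 or 300 mg/L. Each group holds 3 arrays, 1 per sample, and the labels call the replicates biological without naming how the cultures were started, so p-values measure the spread between these samples. No label gives the strain or its genotype. BPA is the phenol monomer from which polycarbonate plastics are made.

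Old yellow enzymes are flavoproteins that use NADPH to reduce activated carbon-carbon double bonds, such as those of unsaturated aldehydes and ketones. OYE2 and OYE3 encode the forms found in S. cerevisiae. The AAD genes were named for their similarity to an aryl-alcohol dehydrogenase of the wood-rotting fungus Phanerochaete chrysosporium, an enzyme that interconverts aromatic aldehydes and alcohols. In yeast, AAD4 and AAD6 are known for induction by oxidants through the transcription factor Yap1.

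The deposited values are log2 expression values, and the submitters' processing notes name RMA, a method that equalises probe intensities between arrays. A change is read here against the other transcripts on an array, since the amount of mRNA per cell was not measured. Fewer cells expressing a gene and less RNA in each cell cannot be told apart. Probe sets of the fission yeast Schizosaccharomyces pombe on the same platform gave a background, the 95th percentile of their values, which ran from 2.05 to 2.20 per array. Of 10 common S. cerevisiae housekeeping genes, 9 were measured, with values from 11.23 to 13.98. All 10 probe sets of the 7 genes lay above background on all 9 arrays. Control arrays had medians of 4.44 to 4.58 over all probe sets, 50 mg/L arrays 4.42 to 4.49, and 300 mg/L arrays 4.86 to 4.96. Over the S. cerevisiae genes alone the median log2 change at 300 mg/L against control was 0.0145. With each array centred on its median gene, that change was 2.40 for OYE3, 0.59 for AAD6, 0.45 for AAD4 and 0.36 for AAD14. It was 0.15 for AAD3, -0.03 for AAD10 and -0.20 for OYE2. The part of the shift over all probe sets in the changes of the 7 genes was not tested.

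The first question is how the 7 genes responded to the higher dose. OYE3 rose 5.37-fold at 300 mg/L, the largest change of the 7. In 3 aryl-alcohol dehydrogenase genes the rise was smaller, at 1.53-fold for AAD6, 1.39-fold for AAD4 and 1.30-fold for AAD14. OYE2 fell by 0.18 on the log2 scale, just past the threshold, and AAD3 and AAD10 did not pass. In all, 4 of the 7 genes rose and 1 fell, where 27.5% of all genes rose and 25.2% fell. Their median log2 change was 0.38, against 0.0145 for all genes. Each gene was tested with limma's moderated test on all 9 arrays, and it passed when its p, adjusted by Benjamini-Hochberg across the 5449 genes, was under 0.05.

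OYE2 had log2 values of 11.35, 11.44 and 11.45 in control cultures, 11.40, 11.23 and 11.32 at 50 mg/L and 11.21, 11.18 and 11.29 at 300 mg/L. All 3 arrays at 300 mg/L lay under all 3 control arrays, while the 50 mg/L arrays overlapped both groups. The difference between 300 mg/L and control was -0.18 ± 0.07 (SE), with a 95% confidence interval from -0.34 to -0.03 and an adjusted p of 0.0491 by limma. That call was lost when any 1 of the 3 control arrays, any 1 of the 3 arrays at 300 mg/L or replicate 3 at 50 mg/L was left out, with adjusted p of up to 0.137. It was also lost with repeated quantile normalization, with arrays centred on the S. pombe probe sets or on the hybridization spike-ins, in a fit of all probe sets (0.140) and with the replicate number as a block (0.0666 over 9 arrays). Over all alternatives the adjusted p ran from 0.00839 to 0.288.

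OYE3 had log2 values of 3.38, 3.60 and 3.99 in control cultures, 3.65, 3.64 and 3.54 at 50 mg/L and 6.66, 5.11 and 6.47 at 300 mg/L. Every array at 300 mg/L lay above every other array, and the control and 50 mg/L arrays overlapped. The change at 300 mg/L against control was 2.43 ± 0.33, with a 95% confidence interval from 1.69 to 3.16 and an adjusted p of 0.000227 by limma. It was the 39th highest change among the 5449 genes, and 4.20% of genes passed the test and rose at least 2-fold. Replicate 2 at 300 mg/L was lower than the other 2 arrays of its group, and without it the change was 2.91 ± 0.15, or 7.51-fold. That array was also the lowest of its group for OYE2, AAD3, AAD4 and AAD6, but the highest for AAD14. On the further probe sets of AAD3, described below, that array was the highest of its group, at 4.63 and 5.54. Among the 229 genes called and at least 2-fold higher at 300 mg/L, it was the lowest of the 3 arrays for 133, or 58.1%. Among all 1500 genes called higher, to which AAD4 and AAD6 also belong, it was the lowest for 505, or 33.7%, and replicate 3 was the lowest for 605. Its part in the spread of OYE3 was not tested.

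**Figure D1:**
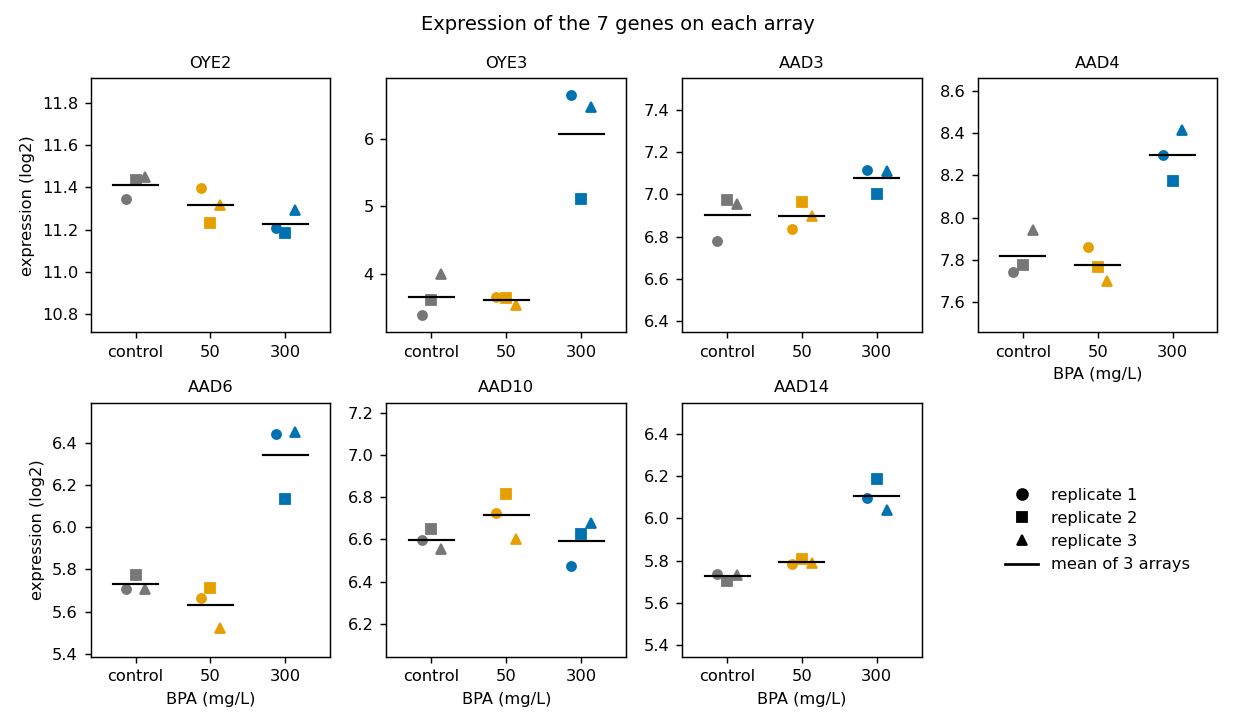
Log2 expression (vertical axis, a separate scale in each panel) of the 7 genes on each of 9 arrays, by BPA dose in mg/L, with 1 marker shape per replicate number and a line at each group's mean. OYE3 spans 5.11 to 6.66 at 300 mg/L against 3.38 to 3.99 in control cultures, and AAD10 overlaps between all groups.

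The 2 old yellow enzyme genes were also compared within each array. The change of OYE3 minus the change of OYE2, taken within each array and so free of any centring, was 2.61 at 300 mg/L against control. The 3 arrays at 300 mg/L did not overlap with the 3 control arrays in this difference, and the two-sided exact permutation test gave p = 0.1, the smallest that 3 against 3 allows. The SD of the within-array difference was 0.81 at 300 mg/L and 0.26 in control cultures (n = 3 each). At 50 mg/L the same difference was 0.0486, with an exact permutation p of 0.8. Both permutation tests took the arrays as unpaired.

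Among the aryl-alcohol dehydrogenase genes, AAD6 had the largest change. Its R64 reference entry is annotated as a pseudogene. Log2 values of AAD6 were 5.71, 5.77 and 5.71 in control cultures, 5.66, 5.71 and 5.52 at 50 mg/L and 6.44, 6.13 and 6.45 at 300 mg/L. The arrays at 300 mg/L were all above the other 6. The change was 0.61 ± 0.09, with a confidence interval from 0.40 to 0.82 and an adjusted p of 0.000453.

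AAD4 was read from a probe set ending in _s_at, a type whose probes can match related transcripts, so its signal may include other AAD genes. Its log2 values were 7.74, 7.77 and 7.94 in control cultures, 7.86, 7.77 and 7.70 at 50 mg/L and 8.30, 8.17 and 8.42 at 300 mg/L. Again the arrays at 300 mg/L were all above the other 6. The AAD4 change was 0.48 ± 0.09, with a confidence interval from 0.28 to 0.67 and an adjusted p of 0.00116.

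AAD14 had the smallest standard error of the genes that rose. Its log2 values were 5.74, 5.71 and 5.73 in control cultures, 5.79, 5.81 and 5.79 at 50 mg/L and 6.10, 6.18 and 6.04 at 300 mg/L. The 3 groups did not overlap and were ordered by dose. The change at 300 mg/L was 0.38 ± 0.06, with a confidence interval from 0.24 to 0.52 and an adjusted p of 0.000635. AAD4 and AAD14 kept their direction but not their calls when arrays were centred on the hybridization spike-ins, with changes of 0.39 (adjusted p = 0.0999) and 0.29 (adjusted p = 0.238).

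AAD3 was also read from an _s_at probe set. Its log2 values were 6.78, 6.97 and 6.96 in control cultures, 6.84, 6.96 and 6.90 at 50 mg/L and 7.12, 7.0 and 7.11 at 300 mg/L. The arrays at 300 mg/L lay above the other 6, by as little as 0.03 between the nearest arrays. The difference from control was 0.17 ± 0.08, with a confidence interval from 0.01 to 0.34 and an adjusted p of 0.0765, so AAD3 did not pass.

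AAD10 had log2 values of 6.60, 6.65 and 6.55 in control cultures, 6.72, 6.81 and 6.60 at 50 mg/L and 6.47, 6.62 and 6.68 at 300 mg/L. The 3 groups overlapped throughout. Its difference at 300 mg/L was -0.00763 ± 0.08, and the confidence interval from -0.18 to 0.17 bounds how far it could have moved in either direction. The adjusted p was 0.946.

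Counted by array, 5 of the 7 genes were higher at 300 mg/L than in control cultures without overlap and 1 was lower without overlap, where 35.2% and 32.6% of all genes were. The AAD genes were compared with each other within arrays in the same way. The change of AAD6 exceeded that of AAD10 by 0.62, and that of AAD4 exceeded AAD10 by 0.48. The change of AAD10 minus that of AAD14 was -0.39. AAD3 minus AAD4 was -0.30 and AAD3 minus AAD6 was -0.44. These 5 of the 10 AAD pairs, and 16 of all 21 pairs of the 7 genes, did not overlap between the 300 mg/L and control arrays. By contrast, AAD4 and AAD14 differed from each other by 0.0946 with overlapping arrays and an exact permutation p of 0.7. For the pairs without overlap the exact permutation p was 0.1, the smallest possible, and 0.131 after Benjamini-Hochberg adjustment over all 21 pairs. These pairs were compared after the values had been seen. How often pairs drawn from all genes show no overlap was not counted, so the 16 of 21 has no share beside it. AAD3 and AAD4 were read here from _s_at probe sets, whose signal may include other AAD genes, so their pairs may not compare separate genes.

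**Figure D2:**
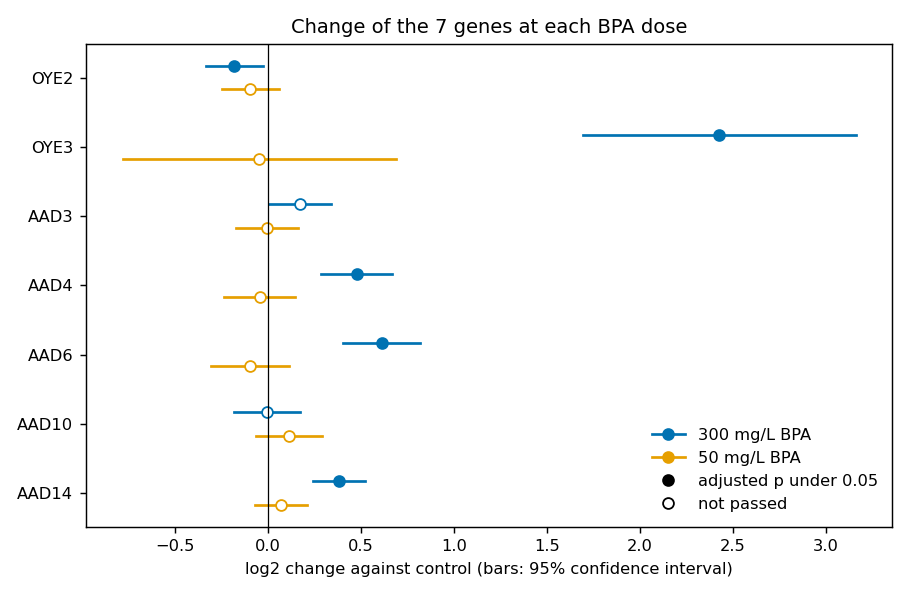
Log2 change of each gene against control (horizontal axis) for the doses of 300 and 50 mg/L, with 95% confidence intervals from limma over 9 arrays; filled circles have an adjusted p under 0.05. At 300 mg/L OYE3 lies at 2.43 and AAD10 at -0.00763, and at 50 mg/L every interval includes 0.

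AAD3 and AAD4 each have further probe sets, and for neither gene did all probe sets give the same call. AAD3 is also covered by a probe set ending in _x_at, in which some probes can match other transcripts, and by 1 with the plain ending _at. On the plain AAD3 probe set the log2 values were 3.89, 4.11 and 4.37 in control cultures, 4.50, 4.12 and 4.31 at 50 mg/L and 4.57, 4.63 and 4.50 at 300 mg/L. Arrays at 300 mg/L did not overlap with control arrays there, nor did those of the _x_at probe set, at 5.51 to 5.54 against 5.17 to 5.49. In a fit of all 10928 probe sets, where 24.1% were called at 300 mg/L against control, the plain AAD3 probe set changed by 0.45 ± 0.13 (adjusted p = 0.0265). In that fit the _x_at set differed by 0.24 ± 0.10 (adjusted p = 0.122) and the _s_at set by 0.17 ± 0.09 (adjusted p = 0.185). Only the plain AAD3 probe set passed. For AAD4 the plain probe set differed from control by 0.41 ± 0.14 and did not pass (adjusted p = 0.0622). The _s_at set of AAD4 passed, at 0.48 ± 0.09 (adjusted p = 0.00341). Both AAD4 probe sets were higher at 300 mg/L on all 3 arrays. In control cultures the plain AAD4 probe set had a mean of 3.94, against 7.82 on the _s_at set. For AAD3 these means were 4.12 and 6.90. How much of the _s_at signal comes from other AAD genes was not tested. With the plain probe sets of both genes in the gene-level test, 5 of the 7 genes rose and 1 fell. AAD4 is counted there as risen, though its plain probe set did not pass in the fit of all probe sets.

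**Figure D3:**
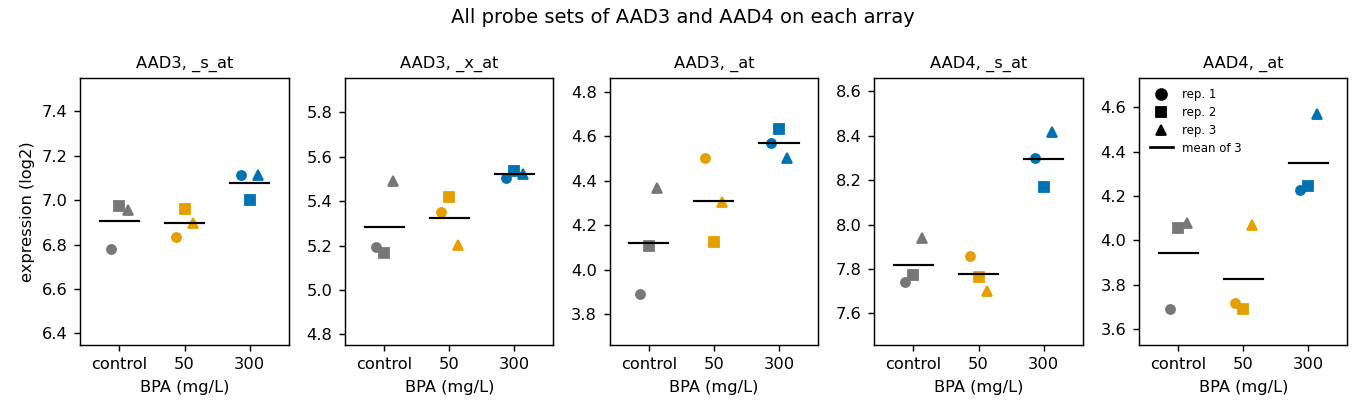
Log2 expression (vertical axis, a separate scale in each panel) on each of 9 arrays for the 3 probe sets of AAD3 and the 2 of AAD4, named by their endings, by BPA dose in mg/L; markers are replicates and lines are group means. In all 5 panels the arrays at 300 mg/L lie above the control arrays.

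The second comparison asks whether the lower dose moved these genes. None of the 7 passed at 50 mg/L against control by limma, where 0% of all genes were called. None had an unadjusted p under 0.05 either, where 389 of the 5449 genes did, and the smallest adjusted p among the 7 was 0.581, for AAD10. Their median log2 change was -0.0439, against -0.00302 for all genes. OYE3 differed by -0.0468 ± 0.33, with a confidence interval from -0.78 to 0.69. Its standard error is pooled over all 9 arrays, where the SD of OYE3 was 0.31 in control cultures, 0.06 at 50 mg/L and 0.84 at 300 mg/L.

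The other 6 genes were bounded more tightly at 50 mg/L. AAD10 differed by 0.11 ± 0.08, with an interval from -0.06 to 0.29. AAD6 differed by -0.10 ± 0.09, with an interval from -0.30 to 0.11, and OYE2 by -0.10 ± 0.07, from -0.25 to 0.06. AAD14 differed by 0.07 ± 0.06, from -0.07 to 0.21, although its 3 arrays at 50 mg/L all lay above its 3 control arrays. It was the only one of the 7 without overlap between 50 mg/L and control, where 6.06% of all genes were higher without overlap. Taken by replicate pair, 3 of the 7 genes differed in one direction in all 3 pairs, where 38.5% of all genes did. The differences in replicates 1, 2 and 3 were 0.0497, 0.10 and 0.0564 for AAD14, 0.13, 0.16 and 0.0502 for AAD10, and -0.0424, -0.0627 and -0.18 for AAD6. None of the 7 passed with the replicate block. AAD4 differed by -0.0439 ± 0.09 and AAD3 by -0.00488 ± 0.08. Of the 21 within-array pairs, OYE2 minus AAD10, AAD6 minus AAD10 and AAD6 minus AAD14 did not overlap between the groups at this dose, at -0.21, -0.21 and -0.17. These 3 each came with an exact permutation p of 0.1 and an adjusted p of 0.7 over all pairs. The permutations took the arrays as unpaired, and pairs drawn from all genes were not counted at this dose either.

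The third comparison, 300 against 50 mg/L, asks what the higher dose added, and it shares the 300 mg/L arrays with the first. Here 4 of the 7 genes rose and 0 fell, where 27.5% of all genes rose and 25.3% fell. OYE3 was higher by 2.47 ± 0.33 (adjusted p = 0.000197 by limma), AAD6 by 0.71 ± 0.09 (adjusted p = 0.000187), AAD4 by 0.52 ± 0.09 (adjusted p = 0.000686) and AAD14 by 0.31 ± 0.06 (adjusted p = 0.00199). AAD3 differed by 0.18 ± 0.08 (adjusted p = 0.0690) and passed without replicate 2 of the 50 mg/L group (0.0428), with S. pombe centring (0.0312) and with array weights (0.0103). AAD10 differed by -0.12 ± 0.08 and OYE2 by -0.09 ± 0.07, both short of the threshold. By array, OYE3, AAD3, AAD4, AAD6 and AAD14, that is 5 of 7, were higher than at 50 mg/L without overlap and 0 were lower, where 30.9% and 28.8% of all genes were. A moderated F test for any difference among the 3 groups called OYE3, AAD4, AAD6 and AAD14, that is 4 of 7, where 52.9% of all genes were called.

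Genes of related function were read from lists. Of 28 oxidative stress genes, 9 rose and 8 fell at 300 mg/L against control, that is 32.1% and 28.6%, near the 27.5% and 25.2% of all genes. CTA1, the peroxisomal catalase, rose by 3.31 ± 0.31, TRX3, a mitochondrial thioredoxin, by 0.85 ± 0.09 and YAP1 by 0.63 ± 0.08. Whether Yap1 had a part in any of these changes was not tested. GTT2 rose by 0.47 ± 0.15, SKN7 by 0.43 ± 0.14 and GSH1 by 0.32 ± 0.07. The list's remaining rises were GPX2 at 0.28 ± 0.08, TRX1 at 0.25 ± 0.07 and SOD1 at 0.15 ± 0.06. TRX2 and TRR1 were among the 11 genes of the list that did not pass, at -0.00238 ± 0.07 and -0.00863 ± 0.07. Falls were led by MCR1, a mitochondrial cytochrome b5 reductase, at -0.96 ± 0.14, the mitochondrial superoxide dismutase SOD2, at -0.89 ± 0.09, and the cytochrome c peroxidase CCP1, at -0.85 ± 0.08. The list's median change was 0.08. Centred on the spike-ins it was -0.01, with 3 genes higher and 7 lower. At 50 mg/L none of them passed, and GSH2 and GPX2, of glutathione synthesis and peroxide removal, differed by -0.0833 ± 0.07 and -0.13 ± 0.08.

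Of 24 other reductases of aldehydes, ketones and quinones 21 were measured, and 5 rose and 7 fell at 300 mg/L, with a median change of -0.11. These shares, 23.8% and 33.3%, also lie near those of all genes, 27.5% and 25.2%. Centred on the spike-ins, 3 rose and 6 fell. GRE2, a methylglyoxal reductase, rose by 2.06 ± 0.23, FRM2, a nitroreductase relative, by 1.32 ± 0.18 and BDH2, a putative butanediol dehydrogenase, by 0.87 ± 0.29. ZTA1, an NADPH-dependent quinone reductase, fell by 0.88 ± 0.11 on the log2 scale, YPR1, an aldo-keto reductase, by 0.73 ± 0.13 and PST2, a flavodoxin-like protein, by 0.73 ± 0.07. At 50 mg/L no gene of the list passed. ADH7, an alcohol dehydrogenase, and SOR2, a sorbitol dehydrogenase on an _s_at probe set, had the smallest p there, with differences of -0.30 ± 0.11 and -0.28 ± 0.08 and an adjusted p of 0.581 for both. AAD15, AAD16 and SOR1 were not analysed here.

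Most genes on a list of drug resistance regulators, transporters and related genes rose, but not most of its regulators. Of 24 genes 17 rose and 1 fell at 300 mg/L, or 70.8% and 4.17%, against 27.5% and 25.2% of all genes, with a median change of 0.52. The list was chosen with earlier results of these data known, so its share is not independent evidence. HXT11, a hexose transporter linked to drug sensitivity, rose by 2.61 ± 0.30, RTA1, named for resistance to aminocholesterol, by 2.52 ± 0.17 and the polyamine exporter gene TPO1 by 1.87 ± 0.09. Among the regulators PDR3 rose by 0.44 ± 0.12, STB5 by 0.30 ± 0.06 and YRR1 by 0.21 ± 0.08. YRR1 was just past the threshold (adjusted p = 0.0441 by limma), and STB5 did not pass with spike-in centring. The regulators PDR1, YRM1, PDR8 and CAD1 did not pass in either direction. Regulators were set apart from the list after the values had been seen. The 1 fall was TPO4, another polyamine exporter, at -0.38 ± 0.14, and it did not pass with S. pombe centring or without replicate 2 at 300 mg/L. Centred on the spike-ins, 12 rose and 1 fell. None passed at 50 mg/L, where the exporter genes PDR5 and YOR1 differed by 0.49 ± 0.11 and 0.48 ± 0.10.

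NADPH, the cofactor of old yellow enzymes, is supplied chiefly by the pentose phosphate pathway. Of 18 NADPH supply genes 7 rose and 6 fell at 300 mg/L, or 38.9% and 33.3%, against 27.5% and 25.2% of all genes. Their median change was -0.09. RKI1, the ribose-5-phosphate isomerase, rose by 0.91 ± 0.11, the peroxisomal isocitrate dehydrogenase gene IDP3 by 0.71 ± 0.16 and the transketolase gene TKL2 by 0.55 ± 0.09. SOL4, a 6-phosphogluconolactonase gene, fell by 1.40 ± 0.30 on the log2 scale, the transaldolase gene TAL1 by 0.76 ± 0.06 and GND1, the main phosphogluconate dehydrogenase gene, by 0.50 ± 0.07. RKI1, TKL2 and TAL1 act in the non-oxidative branch of the pathway, which makes no NADPH itself. In the oxidative branch SOL4 and GND1 fell, while ZWF1 rose by 0.38 ± 0.07 and SOL3 by 0.27 ± 0.09, and GND2 did not pass. SOL3 did not pass with median or spike-in centring, or without replicate 2 at 300 mg/L. With spike-in centring 3 rose and 4 fell. At 50 mg/L none passed, and the smallest p were those of RKI1, at -0.22 ± 0.11, and SOL3, at -0.16 ± 0.09.

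**Figure D4:**
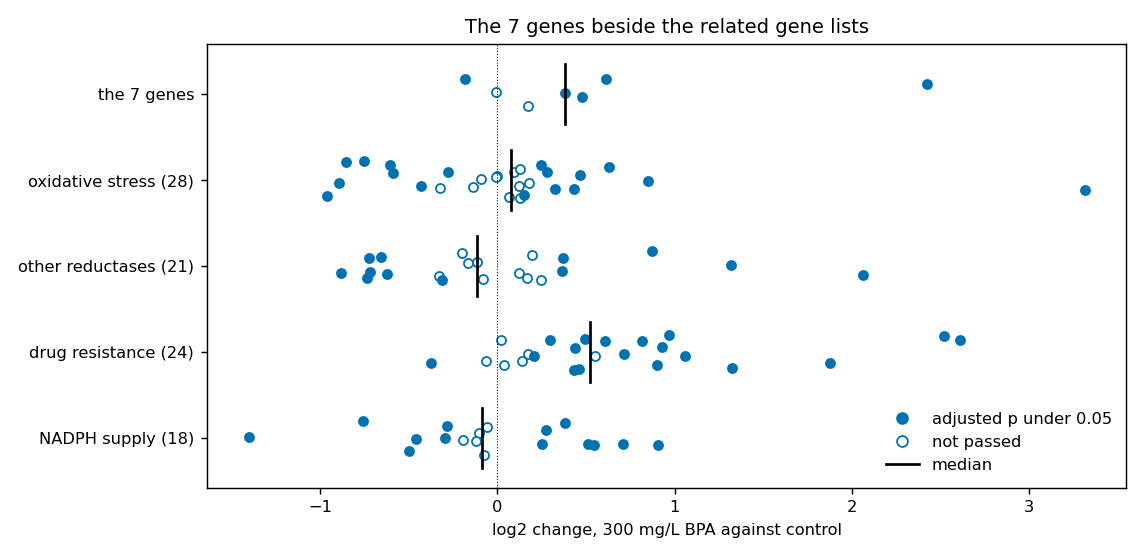
Log2 change at 300 mg/L BPA against control (horizontal axis) for the 7 genes and for the genes measured in 4 related lists, with list sizes in brackets; each circle is a gene, filled at an adjusted p under 0.05, and vertical lines are medians. The drug resistance list has its median at 0.52 and the other 3 lists have theirs between -0.11 and 0.08.

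The genes whose pattern was most like each of the 7 were found by the root mean square difference over the 9 arrays, after each gene's control mean was subtracted. The 7 genes themselves were left out of this search, so likeness among them was not read. For OYE3 the nearest was ECM13, at 0.20 on the log2 scale, followed by YBR072C-A at 0.22 and RGI2 at 0.24. ECM13 changed by 2.31 ± 0.27 at 300 mg/L, and its 3 values there were 6.78, 5.40 and 6.49, with replicate 2 lowest. These genes were chosen on the same 9 arrays, so a shared low replicate is no separate evidence. YBR072C-A lay at background on 1 of 3 control arrays. RGI2, a gene of respiratory growth, lay at background on all 3 control arrays. It rose at least 5.22-fold when the control level was set to each array's background (adjusted p = 4.01e-05 by limma on the values as deposited). For AAD4 the nearest were YNL040W, FLR1 and VBA2, at 0.06 to 0.07. FLR1, a drug exporter gene of the drug resistance list, changed by 0.46 ± 0.09 at 300 mg/L. For AAD6 they were ENA5, on an _s_at probe set, RCH1 and RKM4, at 0.05 to 0.08.

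For OYE2 the nearest were GET3, RPS3 and KRE2, and for AAD14 they were TOA2, EAF5 and FCY1, all within 0.05. For AAD3 they were STB4, APL6 and TOS1, and for AAD10 YDR239C, HRQ1 and CMR3.

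**Figure D5:**
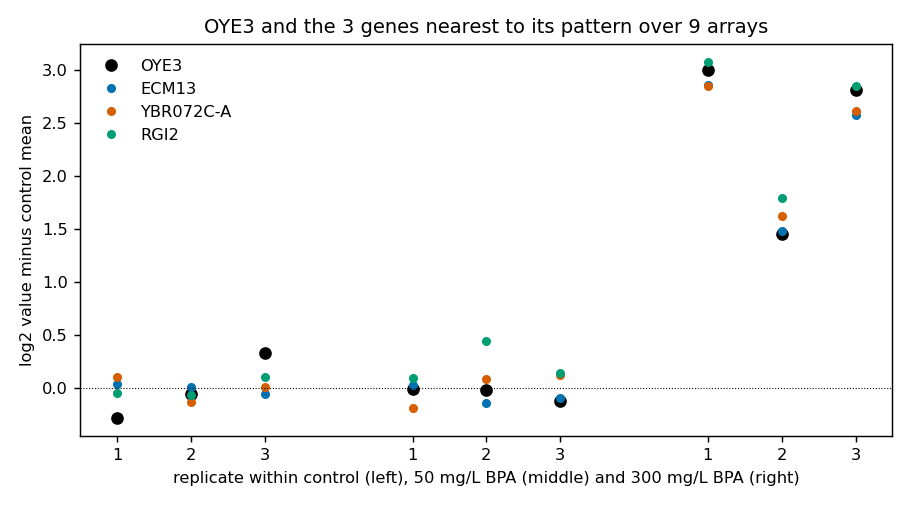
Log2 value minus the gene's control mean (vertical axis) on each of 9 arrays (horizontal axis, replicates 1 to 3 of each group, from control to the higher dose) for OYE3 and the 3 genes nearest to it. At 300 mg/L the 4 genes run together, as their choice by likeness on these arrays implies, lowest in replicate 2, where OYE3 stands 1.46 above its control mean.

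The 2 families differ in position. In the R64 gene order AAD3 lies 1 gene from a chromosome end, AAD4 and AAD10 lie 5, AAD14 lies 6 and AAD6 lies 10, whereas OYE2 lies 46 and OYE3 111 genes from one. AAD4, AAD6, AAD10 and AAD14 each stand beside a member of the THI5 family of thiamine synthesis genes. Of these THI genes only THI13, next to AAD4, was measured, on an _s_at probe set, and it differed by 0.11 ± 0.10 at 300 mg/L. Among the 511 other genes within 20 genes of a chromosome end, 33.3% rose and 23.5% fell at 300 mg/L against control. Among the 4931 remaining genes 26.9% rose and 25.4% fell. A change of at least 2-fold upward was called for 6.85% of the end genes and 3.91% of the rest, a difference that was not tested.

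Of the 14 direct neighbours of the 7 genes, 9 were measured, and 3 of them rose and 1 fell at 300 mg/L. That is 33.3% and 11.1% of 9 genes, where 27.5% and 25.2% of all genes did. STB5, which encodes an activator of drug resistance and NADPH genes and lies next to OYE2, rose by 0.30 ± 0.06 (adjusted p = 0.00219 by limma), while OYE2 fell by 0.18 on the log2 scale. Beside OYE3, COX10, a gene of heme A synthesis, differed by -0.17 ± 0.10 and DAP1, a heme-binding protein gene of sterol synthesis, rose by 0.26 ± 0.09. DAP1 did not pass with repeated quantile normalization, median centring or spike-in centring, or without replicate 2 at 300 mg/L. Both values are smaller than the 2.43 of OYE3. RPD3, a histone deacetylase gene beside AAD14, fell by 0.35 ± 0.08 on the log2 scale. STB5 and RPD3 did not pass with spike-in centring. AGP3, an amino acid permease gene beside AAD6, rose by 0.34 ± 0.12, but it did not pass under 4 of 5 other settings, and its sign turned when quantile normalization was repeated. The neighbours, and the distance of 20 genes from a chromosome end, were chosen after the values of the 7 genes had been seen.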

How the data were processed

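The authors deposited log2 expression values for 9 one-colour arrays. The submitters' processing notes name the tools RMA, affy and limma without a version or role. The sources used here give no batch, scanner files were not used, and precision is limited by having 3 arrays per group.

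Of 10928 probe sets in the deposited table, 5498 matched 5449 genes of the R64 reference gene table, used for names and gene order only. Where a gene had several probe sets (47 genes), that of highest mean over the arrays was kept. Another 1746 probe sets are of S. pombe. Tests used R 4.3.3 with limma 3.58.1 over all 9 arrays, two-sided, adjusting p across the 5449 genes by Benjamini-Hochberg, at 0.05; robust fits used statmod 1.5.0 and figures matplotlib 3.10.9. Errors of changes are standard errors. The fit was tested on simulated data.

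Named are the 7 genes, per list up to 3 largest rises and falls past the threshold (or the 2 smallest p), and the 3 nearest patterns per gene outside the 7. Direct neighbours, the drug resistance regulators, the remaining rises of the oxidative stress list, TRX2, TRR1, ZWF1, SOL3 and GND2 are also named. They were chosen after the values had been seen. The 7 genes and the lists were chosen with earlier results of these data known. No arrays were identical. Deviations from group means of same-numbered arrays correlated from 0.19 to 0.42 between 50 mg/L and control. Differently numbered arrays of these groups correlated from -0.43 to 0.18. Same-numbered arrays ran from -0.34 to 0.09 between 300 mg/L and control and from -0.26 to 0.16 between 300 and 50 mg/L. Differently numbered arrays there reached 0.33 and 0.40, so these correlations do not establish that the replicate numbers pair the cultures. The main tests used no pairing. Only the replicate differences at 50 mg/L, the replicate block and the sign-flip test took the numbers as pairs.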

Additional observations from a re-analysis of the deposited data

How the results depend on the processing

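At 300 mg/L against control, 5 of the 7 genes passed, and 2 (OYE3 and AAD6) when arrays were centred on the hybridization spike-ins. Leaving out 1 array in turn gave 4 to 5. OYE3 and AAD6 kept their direction and call against control and against 50 mg/L under all 24 alternatives. Spike-in centring moved the median of all genes by -0.0876 for 300 mg/L and by -0.11 for 50 mg/L, against control. It called 1532 genes, against 2872 in the deposited scaling, at 300 mg/L against control, 1417 against 2878 at 300 against 50 mg/L, and 1503 against 2880 by the F test; the cause was not tested. For 300 against 50 mg/L the split of higher and lower genes was 1497 and 1381, and 882 and 535 with that centring. For 300 mg/L against control it was 1500 and 1372, 679 and 853 with spike-ins, 1300 and 1629 with repeated quantile normalization, and 1706 and 1158 with S. pombe centring, so the shares of all genes move with the scaling. At 50 mg/L none of the 7 genes passed under any alternative, though array weights called 31 genes in all and the replicate block among the 6 arrays compared called 1.

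Among the 7 genes, the signs that turned were of values that did not pass. AAD10 at 300 mg/L was 0.0373 with S. pombe centring and from -0.0501 to 0.0511 with 1 array left out. At 50 mg/L AAD3 was 0.0752 as the mean of its probe sets, 0.19 on its plain probe set, 6.6e-05 with S. pombe centring and from -0.0662 to 0.0303 with 1 array left out. OYE3 there ran from -0.19 to 0.12 and AAD4 from -0.0862 to 0.0173 with 1 array left out, and AAD14 was -0.0392 with spike-in centring. The change of OYE3 minus that of OYE2 at 50 mg/L ran from -0.0595 to 0.20 with 1 array left out, and at 300 mg/L from 2.31 to 3.07.

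AAD3 passed at 300 mg/L against control as the mean of its probe sets, on its plain probe set, with S. pombe centring and with array weights. AAD14 did not pass at 300 against 50 mg/L with repeated quantile normalization (0.18, adjusted p = 0.0529) or spike-in centring (0.33, adjusted p = 0.176). With the replicate block the 7 genes had 4 calls at 300 mg/L against control, as OYE2 had an adjusted p of 0.0666 over 9 arrays and 0.0505 among the 6 compared. The block changed no other call of the 7 genes, and the exact sign-flip test of OYE3 minus OYE2 gave p = 0.25 at 300 mg/L, the smallest that 3 pairs allow. The plain probe sets of AAD3 and AAD4 were chosen as an alternative after seeing the data.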
